A study of Mus musculus with 8 samples.

Results

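Smooth muscle contractile genes were examined in RNA from whole mouse testis. The set holds 10 genes that encode the contractile apparatus of smooth muscle, the alpha and gamma smooth muscle actins Acta2 and Actg2, the myosin heavy chain Myh11, the regulatory light chain Myl9, the light chain kinase Mylk, the actin-binding proteins Tagln, Cnn1, Smtn and Lmod1, and the intermediate filament protein Des. They were taken by symbol from the deposited table, which holds 19906 genes, and all 10 were found. The study set whole testis of 4 Tmem232-/- mice against that of 4 Tmem232+/+ mice, all at 2 months of age and with 1 library per mouse, to see how transcripts change when Tmem232 is lost. The Tmem232-/- mice carry a CRISPR-Cas9 deletion of coding exons in every cell of the body, so that neither germ cells nor muscle cells were targeted alone, and the Tmem232+/+ mice are wild type. Total counts lay between 15428421 and 16350871 per library.

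In the testis, flat peritubular myoid cells surround each seminiferous tubule and squeeze it, which moves immotile sperm toward the rete testis. Their contraction follows the smooth muscle scheme, in which calcium and calmodulin activate the kinase encoded by Mylk, the kinase phosphorylates the regulatory light chain, and myosin then pulls on actin filaments. The same proteins are made by the mural cells of blood vessels, by contractile cells of the capsule and by the muscle coat of the adjoining epididymal duct. Libraries of whole testis do not separate these sources, and fewer cells of a type cannot be told apart from less RNA per cell. The transcription of many of these genes depends on serum response factor (SRF), which binds a short element known as the CArG box, and on its partner myocardin.

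Of the 10 genes, 7 had a promoter window of 300 bases in the RefSeq sequences of GRCm38.p6, and Actg2, Myh11 and Tagln had none. These windows run from 250 bases before an annotated start to 50 after it. They were searched for the CArG box, which is CC, 6 bases that are A or T, and GG, and which reads the same on both strands. The box was present in 1 of the 7 windows, that of Myl9, and in 1.63% of all 32851 windows. The windows of Mylk, Des and Smtn lie wholly within the deposited bounds of their genes, and other starts of these genes were not searched. That of Mylk begins at 34784700, where the gene begins at 34745199. With a single C or G allowed among the 6 middle bases, 2 of the 7 windows had a match, those of Acta2 and Myl9, as against 8.5% of all windows. The stretches of 30 bases around these boxes are shown because Acta2 and Myl9 were the members with the highest levels. The capitals mark the box, on the strand of the gene, at chr2:156775293-156775322 and chr2:156775355-156775384 (plus strand) for Myl9 and at chr19:34255438-34255467 and chr19:34255388-34255417 (minus strand) for Acta2. The first stretch of Myl9 holds the exact box and the other 3 stretches hold the relaxed form.
Myl9, first stretch: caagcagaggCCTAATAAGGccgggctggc
Myl9, other stretch: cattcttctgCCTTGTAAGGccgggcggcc
Acta2, first stretch: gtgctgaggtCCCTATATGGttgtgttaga
Acta2, other stretch: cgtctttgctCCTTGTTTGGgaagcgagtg
A match describes these letters alone, and binding of SRF was not measured.

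Acta2 and Actg2 encode actins of nearly the same sequence, and since they went in opposite directions in these libraries it matters whether reads can tell them apart. In the GENCODE M21 transcripts of GRCm38, their coding sequences have 1134 and 1131 bases, and set base against base from the stop codon, with no gap, they differed at 183 of 1131 bases, an identity of 83.82%. This slightly overstates the difference, since both begin with the same bases and the extra 3 bases of Acta2 put its first bases out of step. The last 60 coding bases, up to and with the stop codon, are shown with the differing bases in capitals as an example of how the transcripts can be told apart. They are coding bases 1075 to 1134 of Acta2 and 1072 to 1131 of Actg2, counted from the start codon, and hold 11 differences.
Acta2: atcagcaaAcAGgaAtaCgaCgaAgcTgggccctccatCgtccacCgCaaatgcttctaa
Actg2: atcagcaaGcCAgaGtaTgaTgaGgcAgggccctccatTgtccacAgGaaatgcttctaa
The longest run without a difference in this comparison had 29 bases, and no stretch of 50 bases of the Acta2 transcript was found in that of Actg2. Actg2 shared no stretch of 50 bases with the transcripts of Acta1, Actc1, Actb or Actg1 either, and Acta2 shared 7 of 1986 such stretches with Actg1 and none with Acta1, Actc1 or Actb. The counts of Acta2 and Actg2 were whole numbers in all 8 libraries. Tagln was the only member whose counts were not whole, in 8 of 8 libraries, and in the annotation it overlaps Pcsk7 on the other strand. The sources used here do not give a strand setting for the counting, so that reads shared by Tagln and Pcsk7 could not be separated. Des, Mylk, Smtn and Lmod1 overlap annotated transcripts of the other strand as well, and their counts hold the same uncertainty.

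The labels were checked first. Tmem232 itself had 148, 132, 123 and 122 counts per 1000000 counts (CPM, after TMM scaling) in replicates 1 to 4 labelled Tmem232-/- and 111, 106, 108 and 109.9 CPM in those labelled Tmem232+/+. The count of the whole gene was thus higher, without overlap, in the libraries labelled Tmem232-/- (log2 fold change 0.27, SE 0.072, edgeR adjusted p = 0.034), and since the table holds no counts per exon, the loss of the deleted exons could not be checked. The libraries are named by their labels for this reason, and every direction below rests on them. Replicates 1 and 3 labelled Tmem232+/+ held the most transcripts of the epididymis, and replicate 1 labelled Tmem232-/- held some as well. Crisp1, a secreted protein of the epididymal epithelium, had 27.0 and 9.94 CPM in them, no count in replicates 2 and 4 labelled Tmem232+/+, and 5.52, 0.0628, 0 and 0.861 CPM in replicates 1 to 4 labelled Tmem232-/-, where a library without a count allows up to 3 counts. Adam7, another gene of that epithelium, had 4.49 and 0.823 CPM in replicates 1 and 3 labelled Tmem232+/+ and 0.666 CPM in replicate 1 labelled Tmem232-/-. The fit without both replicates 1 and 3 labelled Tmem232+/+ kept the latter library. Where leaving out either or both moved the log2 fold change of a contractile gene by over 1.5 times, the value without them is given. Markers of Sertoli cells (10 of 10 tested) and Leydig cells (8 of 8 tested) were measured in all libraries, as a testis should show.

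All 10 contractile genes passed the filter on low counts. In the libraries labelled Tmem232-/-, Acta2 and Myh11 were lower, Actg2 was higher and the other 7 genes did not pass the test. Lower were thus 2 of 10 members, where 1.46% of all 15787 tested genes were lower, and higher was 1 of 10, where 10.3% of all tested genes were higher, by the quasi-likelihood test of edgeR with a Benjamini-Hochberg adjusted p below 0.05. DESeq2 called Acta2 and Myh11 lower as well, where 1.25% of its 17560 genes were lower, and Actg2 higher. At an unadjusted p below 0.05 in edgeR, 5 members were lower, where 10.5% of all tested genes were, and 1 was higher, where 14.6% were. Each p-value measures the spread between these mice alone. The members were chosen with earlier results of these data known, so their shares beside all tested genes are a description and no test of the set. The median log2 fold change of the 10 genes was -0.27, as against -0.05 over all tested genes. A log2 fold change below 0 was found for 9 of the 10 members and for 60.8% of all tested genes. The exception was Actg2, and the 9 others lay between -0.38 and -0.10. Without replicate 1 labelled Tmem232+/+ none of the 10 was called lower, and without replicate 4 labelled Tmem232-/- 3 were.

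**Figure D1:**
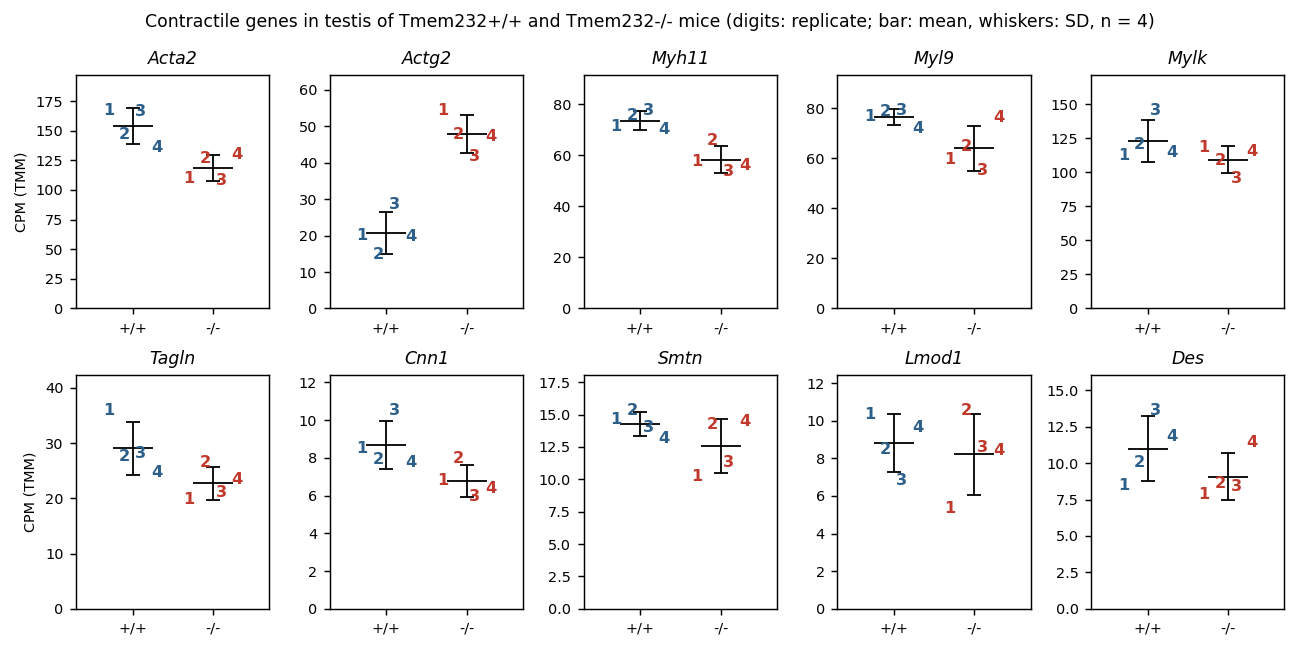
CPM of the 10 contractile genes after TMM scaling in testis of Tmem232+/+ (blue) and Tmem232-/- (red) mice by label. Digits stand for the replicate number, the horizontal line for the mean and the whiskers for the SD (n = 4). For Acta2 and Myh11 the 4 red digits lie below the 4 blue ones, for Actg2 above them, and in the other 7 panels the groups overlap.

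Levels were compared between genes as FPKM, which is per length of transcript. In the libraries labelled Tmem232+/+, Myl9 had the highest level with 85.0 ± 4.45 FPKM (SD, n = 4), followed by Acta2 with 65.2 ± 5.79 FPKM. The ranges of these genes did not overlap each other or those of the genes below. Tagln, Actg2, Mylk and Myh11 came next with 20.7, 18.4, 16.5 and 15.7 FPKM, and each overlapped the next in this order. Cnn1 had 6.85 FPKM, and Smtn, Des and Lmod1 had 4.60, 3.85 and 2.37 FPKM, of which Smtn and Des overlapped and Des and Lmod1 did not. In the libraries labelled Tmem232-/- the order was the same except that Actg2, with 41.3 ± 4.22 FPKM (SD, n = 4), moved above Tagln, with 15.9 ± 2.22 FPKM. Its highest library, with 46.2 FPKM, then overlapped those of Acta2, which lay between 44.3 and 55.1 FPKM.

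**Figure D2:**
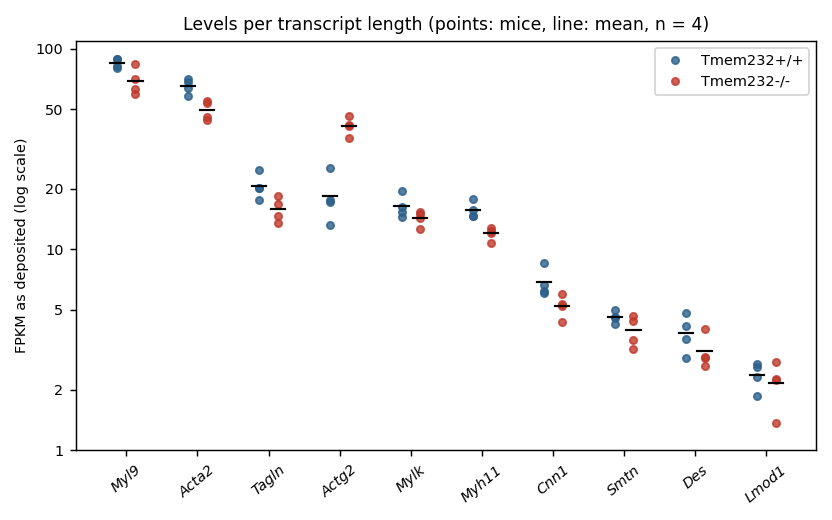
FPKM as deposited, on a log scale, for each contractile gene in the order of the Tmem232+/+ mean. Points are mice (blue Tmem232+/+, red Tmem232-/- by label, n = 4 each) and lines are means. Levels run from 85.0 FPKM for Myl9 to 2.37 FPKM for Lmod1 in Tmem232+/+, and Actg2 is the gene whose red points lie above the blue ones.

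The actins went in opposite directions. Acta2 (Entrez ID 11475, chromosome 19 of GRCm38.p6 from 34240336 to 34255585) encodes alpha smooth muscle actin, the main actin of contractile smooth muscle and the usual marker of peritubular myoid cells. Its CPM values were 109.8, 127, 108 and 129.9 in Tmem232-/- replicates 1 to 4 by label and 167, 147, 166 and 136 in Tmem232+/+ replicates. All libraries labelled Tmem232-/- lay below all others, with replicate 4 of each label separated by the smallest gap, and the highest values were those of replicates 1 and 3 labelled Tmem232+/+. The means were 119 ± 11.2 and 154 ± 15.2 CPM (SD, n = 4 each), a log2 fold change of -0.38 (standard error, SE, 0.091; edgeR adjusted p = 0.018) or 23.0% less. An exact permutation test of CPM gave a two-sided p of 0.029, the smallest that 4 mice against 4 allow. Non-overlapping lower values were found for 2 of the 10 members and for 6.88% of all tested genes.

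The call for Acta2 was lost in 5 of 17 alternatives. Without replicate 1 labelled Tmem232+/+, which held the most Crisp1, its log2 fold change was -0.30 (edgeR adjusted p = 0.12). Without replicate 1 or 3 labelled Tmem232-/- it was -0.34 with an adjusted p of 0.063 or 0.061 from the same test. With all libraries kept and a block on the replicate number, which did not pair the libraries, it was -0.38 (edgeR adjusted p = 0.093). Without both replicates 1 and 3 labelled Tmem232+/+, a comparison chosen after seeing the data, it was -0.23 (edgeR adjusted p = 0.22). Its sign was negative in all 17 alternatives, with adjusted p between 0.0046 and 0.22.

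Actg2 (Entrez ID 11468, chromosome 6 from 83512909 to 83536251) encodes gamma smooth muscle actin, the actin of visceral smooth muscle, and its transcript is also known from haploid male germ cells of the mouse. Actg2 CPM values were 54.4, 47.8, 41.6 and 47.3 in Tmem232-/- replicates 1 to 4 by label and 20.1, 14.7, 28.5 and 19.8 in Tmem232+/+ replicates. The lowest library labelled Tmem232-/- lay well above the highest one labelled Tmem232+/+, which was replicate 3. The means were 47.8 ± 5.25 and 20.8 ± 5.71 CPM (SD, n = 4 each), a log2 fold change of 1.201 (SE 0.165, edgeR adjusted p = 0.00044), or 2.30-fold higher. Non-overlapping higher values were found for 1 of the 10 members and for 11.8% of all tested genes (for Actg2, p = 0.029 by exact two-sided permutation, the smallest possible). Actg2 kept its direction and its call in all 17 alternatives, with log2 fold changes between 1.07 and 1.49 and an adjusted p of at most 0.0027 in edgeR, DESeq2 and limma.

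The ratio of the actins does not depend on how libraries are scaled, and it was computed after the values of both genes had been seen. The FPKM of Actg2 divided by that of Acta2 was 1.04, 0.771, 0.780 and 0.759 in Tmem232-/- replicates 1 to 4 by label and 0.252, 0.209, 0.360 and 0.304 in Tmem232+/+ replicates. Gamma actin transcripts per length thus exceeded alpha actin transcripts in replicate 1 labelled Tmem232-/- alone, lay below them in the other 3 of that label, and lay further below them in all 4 libraries labelled Tmem232+/+. The mean ratios were 0.838 ± 0.136 and 0.281 ± 0.0652 (SD, n = 4 each), a 2.98-fold difference. On the log2 scale of counts the groups differed by 1.61. No test is given, since the ratio joins a pair of genes already seen to separate in opposite directions. The difference lay between 1.48 and 1.74 with each library left out in turn.

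Markers of spermatids moved with Actg2. The summed level of 10 markers of elongating spermatids, all of which were tested and higher in the libraries labelled Tmem232-/- (10.3% of all tested genes were), was 2207, 1754, 1335 and 2062 CPM in replicates 1 to 4 labelled Tmem232-/- and 441, 340.0, 687 and 498 CPM in those labelled Tmem232+/+. Replicate 2 labelled Tmem232+/+ was lowest and replicate 1 labelled Tmem232-/- was highest for Actg2 and for this sum alike. Within the libraries labelled Tmem232+/+, replicate 3 was highest for both, and within those labelled Tmem232-/-, replicate 3 was lowest for both. For 10 markers of round spermatids, of which 9 were higher against the same 10.3%, the sum ranged from 813 to 1024 CPM and from 406 to 579 CPM. The part of the spermatid markers in the difference of Actg2 was not tested.

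**Figure D3:**
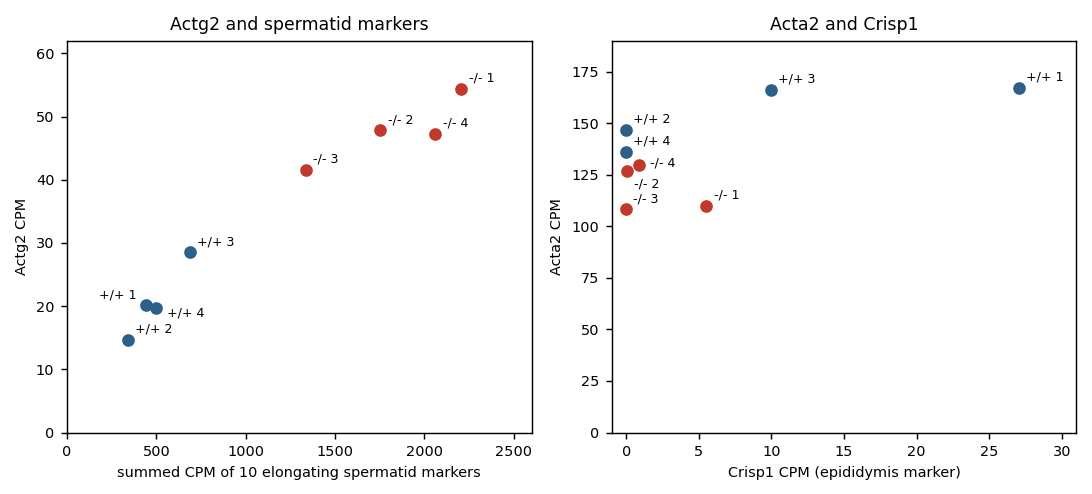
Each point is a library, named by its label and replicate number (red Tmem232-/-, blue Tmem232+/+). The left panel sets Actg2 CPM against the summed CPM of 10 elongating spermatid markers, with both highest in replicate 1 labelled Tmem232-/- (54.4 and 2207 CPM). The right panel sets Acta2 CPM against Crisp1 CPM, with Acta2 at 167 and 166 CPM in the replicates labelled Tmem232+/+ that had 27.0 and 9.94 CPM of Crisp1. Acta2 was at 109.8 CPM in replicate 1 labelled Tmem232-/-, which had 5.52 CPM of Crisp1. In replicate 2 labelled Tmem232+/+, which had no Crisp1 count, Acta2 was at 147 CPM.

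The non-muscle actins differed less. Actb and Actg1, which encode the cytoplasmic actins of all cells, had log2 fold changes of -0.03 and -0.06 (standard errors 0.108 and 0.126) and did not pass the test (edgeR adjusted p = 0.90 and 0.79). Acta1 and Actc1, the skeletal and cardiac actins, were too low to be tested. Acta1 reached 2.15 CPM in replicate 3 labelled Tmem232+/+ and at most 0.20 CPM in any other library.

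Among the myosin genes, Myh11 was lower in the libraries labelled Tmem232-/-. Myh11 (Entrez ID 17880, chromosome 16 from 14194527 to 14291408) encodes the myosin heavy chain of differentiated smooth muscle. Its CPM values were 57.4, 65.8, 53.7 and 55.9 in Tmem232-/- replicates 1 to 4 by label and 71.1, 75.4, 77.6 and 69.9 in Tmem232+/+ replicates. The groups did not overlap, and replicate 2 was the library labelled Tmem232-/- closest to the others. The means were 58.2 ± 5.28 and 73.5 ± 3.60 CPM (SD, n = 4 each), a log2 fold change of -0.34 (SE 0.076, edgeR adjusted p = 0.012), or 20.8% less (p = 0.029 by exact two-sided permutation, the smallest possible). The call was lost in 2 of 17 alternatives, with an adjusted p of 0.055 without replicate 1 labelled Tmem232+/+ and of 0.10 without replicates 1 and 3 of this label (edgeR), where the log2 fold changes were -0.31 and -0.30.

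Myl9 (chromosome 2 from 156775413 to 156781657) encodes the regulatory light chain that the kinase phosphorylates. Myl9 CPM values were 59.6, 64.8, 55.1 and 76.2 in Tmem232-/- replicates 1 to 4 by label and 76.5, 78.5, 79.2 and 72.0 in Tmem232+/+ replicates. The groups overlapped because of replicate 4 labelled Tmem232-/-, which lay above replicate 4 labelled Tmem232+/+. The log2 fold change was -0.26 (SE 0.094, edgeR adjusted p = 0.11), and without replicate 4 labelled Tmem232-/- it was -0.34 with an adjusted p of 0.014. Mylk (chromosome 16 from 34745199 to 35002436) encodes the light chain kinase and, from a start site within the gene, the short protein telokin. Its libraries ranged from 95.6 to 118 CPM under the label Tmem232-/- and from 112 to 146 CPM under Tmem232+/+, with replicate 3 at the low end of the first group and at the high end of the other. The log2 fold change of Mylk was -0.17 (SE 0.098, edgeR adjusted p = 0.31). It was -0.05 without replicate 3 labelled Tmem232+/+, -0.08 without replicates 1 and 3 of this label and -0.11 without replicate 3 labelled Tmem232-/-.

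The actin-binding proteins had lower means in the libraries labelled Tmem232-/- without passing the test. Tagln (chromosome 9 from 45929628 to 45936058) encodes transgelin or SM22-alpha, which bundles actin filaments. Tagln CPM values were 19.8, 26.6, 21.0 and 23.5 in Tmem232-/- replicates 1 to 4 by label and 35.9, 27.6, 28.1 and 24.6 in Tmem232+/+ replicates. Replicate 1 labelled Tmem232+/+ stood above the rest, and its removal changed the log2 fold change from -0.35 (SE 0.128, edgeR adjusted p = 0.11) to -0.20, and without replicate 3 of this label as well it was -0.18. Cnn1 (chromosome 9 from 22099221 to 22109221) encodes calponin, which binds actin and slows the myosin ATPase. Its libraries ranged from 5.95 to 7.97 CPM and from 7.74 to 10.5 CPM for the labels Tmem232-/- and Tmem232+/+, with a log2 fold change of -0.35 (SE 0.138, edgeR adjusted p = 0.14) that was -0.22 without replicate 3 labelled Tmem232+/+ and -0.19 without replicates 1 and 3 of this label.

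Smtn (chromosome 11 from 3517522 to 3539654) encodes smoothelin, a protein of contractile smooth muscle that binds actin filaments. Its range was 10.2 to 14.4 CPM under the label Tmem232-/- and 13.1 to 15.3 CPM under Tmem232+/+, with a log2 fold change of -0.18 (SE 0.124, edgeR adjusted p = 0.39) that was -0.097 without replicate 1 labelled Tmem232-/-. Lmod1 (chromosome 1 from 135324813 to 135368065) encodes leiomodin, which nucleates actin filaments in smooth muscle. It ranged from 5.32 to 10.5 CPM and from 6.84 to 10.3 CPM, so that both groups covered nearly the same values, and its log2 fold change of -0.10 (SE 0.196, edgeR adjusted p = 0.78) turned to 0.058 without replicate 1 labelled Tmem232-/- and to 0.027 without replicate 1 labelled Tmem232+/+, and was -0.17 without replicate 3 labelled Tmem232+/+. Des (chromosome 1 from 75359566 to 75368579) encodes desmin, the intermediate filament protein of muscle. Its libraries ranged from 7.85 to 11.4 CPM and from 8.47 to 13.6 CPM, with a log2 fold change of -0.28 (SE 0.166, edgeR adjusted p = 0.33) that was -0.13 without replicate 3 labelled Tmem232+/+. Des, Smtn and Lmod1 had the lowest levels per length and at most 253 counts in any library, and the lower ends of their approximate 95% confidence intervals (normal) of the log2 fold change, at -0.60, -0.42 and -0.48, lay below the estimates for Acta2 and Myh11.

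**Figure D4:**
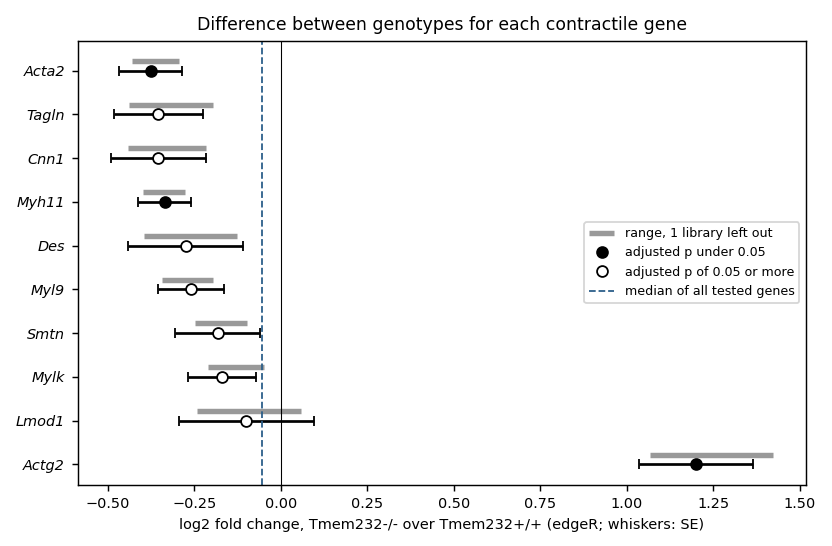
The log2 fold change of each contractile gene, libraries labelled Tmem232-/- over Tmem232+/+, from edgeR with standard errors as whiskers. Filled points have an adjusted p under 0.05, grey bars give the range when each of the 8 libraries is left out in turn, and the dashed line is the median of all tested genes at -0.05. Actg2 stands alone on the right at 1.201, and the bar of Lmod1 crosses 0.

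The 9 genes other than Actg2 were also summed, as a description, and Actg2 was left out after its direction had been seen, so that a lower sum is partly set by this choice. Their summed level was 395, 434, 368 and 442 CPM in replicates 1 to 4 labelled Tmem232-/- and 505, 490.4, 542 and 459 CPM in those labelled Tmem232+/+. The means were 409.5 ± 34.4 and 499 ± 34.1 CPM (SD, n = 4 each), and most of the sum came from Acta2, Mylk, Myl9 and Myh11. With Actg2 included the groups overlapped, since replicates 2 and 4 labelled Tmem232-/- (481 and 489 CPM) exceeded replicate 4 labelled Tmem232+/+ (479 CPM).

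Variation within a genotype was described by pairs of members. After the mean of each label group was subtracted, 37 of the 45 pairs of members had a positive Pearson's r of log2 CPM across the 8 libraries, with a median of 0.39. The closest pairs were Myh11 with Cnn1 (r = 0.83) and Acta2 with Tagln (r = 0.81), and the most opposed was Mylk with Lmod1 (r = -0.67). Acta2, Myh11 and Myl9 were positive with all 9 others, and Acta2 with Actg2 had r = 0.38, although their differences between the labels were opposite. These values describe 8 libraries that share depth and scaling, and they were not compared with those of other genes.

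Among 15063 genes with a mean of at least 1 CPM, the 10 whose log2 CPM followed the mean standardized level of the members most closely across the 8 libraries were Rps6ka4, Dnaic2, Coro7, Zfr2, Xbp1, Slc35f6, Numbl, Tox2, Mgp and Ddx41, with Pearson's r between 0.93 and 0.98. None of them passed the test in edgeR, and their log2 fold changes lay between -0.39 and -0.11. The closest were Rps6ka4 and Dnaic2 (r = 0.98 and 0.95), and none of the 10 was on the cell type lists used here. Mgp, matrix Gla protein, which is made by vascular smooth muscle, ranked 9 of the 10. It had 12.96 CPM in the libraries labelled Tmem232-/- and 15.7 CPM in the others. The genes most like Actg2 alone, a comparison chosen after its values were seen, were Stard10, Gstt4, Iqcf3, Gm6760 and Fam24b with r rounding to 1.00 (the lowest was 0.997), and their log2 fold changes lay between 0.97 and 2.24. The difference between the labels enters each of these r.

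The wider contractile pathway was described with 4 lists that together hold 59 genes, all of them tested. Of the genes reported here, 1 was lower (Tpm2) and 3 were higher (Prkg1, Pln and Klf4) at an adjusted p under 0.05, where 1.46% of all tested genes were lower and 10.3% were higher, so that the lists below with 1 higher gene among 9 to 18 lie near that background. For proteins of the thin filament and of adhesion, 1 of 18 was lower, 17 had a log2 fold change below 0, and the median was -0.20, as against -0.05 over all tested genes (without replicate 1 labelled Tmem232+/+, -0.12). The lower one was Tpm2, the beta tropomyosin that lies along the actin filament. Tpm2 CPM values were 16.3, 16.6, 14.2 and 15.99 in Tmem232-/- replicates 1 to 4 by label and 21.8, 20.6, 25.9 and 19.2 in Tmem232+/+ replicates, without overlap. The log2 fold change of Tpm2 was -0.47 (SE 0.106, edgeR adjusted p = 0.012), and its call was lost without replicate 1 labelled Tmem232+/+ (adjusted p = 0.055) and without replicates 1 and 3 of this label (log2 fold change -0.31, adjusted p = 0.12). A block on the replicate number, which did not pair the libraries, ended this call as well (log2 fold change -0.46, edgeR adjusted p = 0.062).

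For the control of light chain phosphorylation, 1 of 14 genes was higher and none was lower, with a median log2 fold change of -0.09 (-0.039 without replicate 1 labelled Tmem232+/+). The higher one was Prkg1, the cGMP-dependent kinase that relaxes smooth muscle, with 16.4 ± 1.09 and 11.3 ± 0.864 CPM (SD, n = 4 each) under the labels Tmem232-/- and Tmem232+/+ and a log2 fold change of 0.54 (SE 0.095, edgeR adjusted p = 0.0025). Prkg1 kept its call in all 17 alternatives, and its log2 fold change was 0.81 with log2 of FPKM plus 0.1 in limma. Among receptors, channels and calcium stores, 1 of 18 was higher and none was lower, with a median of -0.06 (0.028 without replicate 1 labelled Tmem232+/+). This was Pln, phospholamban, which restrains the calcium pump of the endoplasmic reticulum. Pln CPM values were 14.2, 12.3, 9.74 and 10.6 in Tmem232-/- replicates 1 to 4 by label and 6.73, 3.51, 9.56 and 5.90 in Tmem232+/+ replicates, a log2 fold change of 0.87 (SE 0.243, edgeR adjusted p = 0.040) whose call was lost in 8 of 17 alternatives and which was 1.34 without replicates 1 and 3 labelled Tmem232+/+. The endothelin receptor Ednra, through which myoid cells are made to contract, had a log2 fold change of -0.36 (SE 0.224, edgeR adjusted p = 0.35).

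For SRF, myocardin and their partners, 1 of 9 genes was higher and none was lower, with a median of -0.05 (0.045 without replicate 1 labelled Tmem232+/+). Srf and Myocd had log2 fold changes of 0.08 and -0.36 (standard errors 0.063 and 0.283) and did not pass the test (edgeR adjusted p = 0.44 and 0.47). The higher gene was Klf4, a zinc finger factor that represses smooth muscle genes in cultured smooth muscle and is also known from round spermatids and Sertoli cells. Klf4's CPM values were 141, 132, 117 and 102 in Tmem232-/- replicates 1 to 4 by label and 70.3, 59.5, 69.98 and 71.4 in Tmem232+/+ replicates. The groups did not overlap, and the log2 fold change was 0.86 (SE 0.104, edgeR adjusted p = 0.00018).

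Markers of other cell types show what else could carry or dilute these transcripts. Of 12 other genes of peritubular cells, 1 was higher, near the 10.3% of all tested genes, and none was lower, with a median log2 fold change of -0.13 and 10 values below 0 (median -0.05 without replicate 1 labelled Tmem232+/+). The higher one was Itga1, the integrin alpha-1 chain that binds collagen, with 32.8 ± 3.44 and 19.7 ± 3.39 CPM (SD, n = 4 each) and a log2 fold change of 0.74 (SE 0.126, edgeR adjusted p = 0.0020). None of 9 tested markers of mural cells of vessels, 8 of fibroblasts, 9 of endothelial cells, 10 of Sertoli cells, 8 of Leydig cells and 8 of macrophages passed the test, with medians of -0.18, -0.23, -0.07, -0.12, 0.41 and -0.02. With each library left out in turn, these medians ranged from -0.28 to -0.12 for mural cells, from -0.47 (without replicate 2 labelled Tmem232-/-) to -0.096 (without replicate 1 labelled Tmem232+/+) for fibroblasts, from -0.17 (without replicate 2 labelled Tmem232-/-) to 0.057 (without replicate 1 of that label) for endothelial cells, from -0.17 to -0.083 for Sertoli cells, from 0.30 to 0.56 for Leydig cells, and from -0.079 to 0.054 for macrophages. Without both replicates 1 and 3 labelled Tmem232+/+ the median was -0.33 for mural cells and -0.24 for fibroblasts. In that fit it was -0.20 for endothelial cells and 0.22 for Leydig cells. With all libraries kept, log2 fold changes below 0 were also common among these markers, where 60.8% of all tested genes lay below 0. They were found for 8 of 9 mural, 8 of 8 fibroblast, 6 of 9 endothelial, 8 of 10 Sertoli, 1 of 8 Leydig and 4 of 8 macrophage markers. The summed mural markers ranged from 67.3 to 82.8 CPM in the libraries labelled Tmem232-/- and from 75.2 to 93.6 CPM in the others, and the summed Sertoli markers from 888 to 1111 CPM and from 999.8 to 1063 CPM. Of 10 epididymis markers 7 were in the table and 2 were tested, with sums from 6.07 to 13.6 CPM and from 6.54 to 39.7 CPM, the highest in replicates 1 and 3 labelled Tmem232+/+ (39.7 and 20.6 CPM). Rnase10 alone had between 5.63 and 9.31 CPM in every library, and it made up most of the sum where Crisp1 had few or no counts. Lcn5 had no count in 6 libraries, all 4 labelled Tmem232-/- among them, and Gpx5 had at most 2 counts in any library. Skeletal muscle markers summed to between 26.9 and 35.1 CPM over all libraries, mostly from Actn3, while Ckm did not exceed 0.253 CPM. The part of these cell types in the differences of the contractile genes was not tested. The values without replicates 1 and 3 labelled Tmem232+/+ cannot test it, since these libraries also had the highest Acta2 levels.

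**Figure D5:**
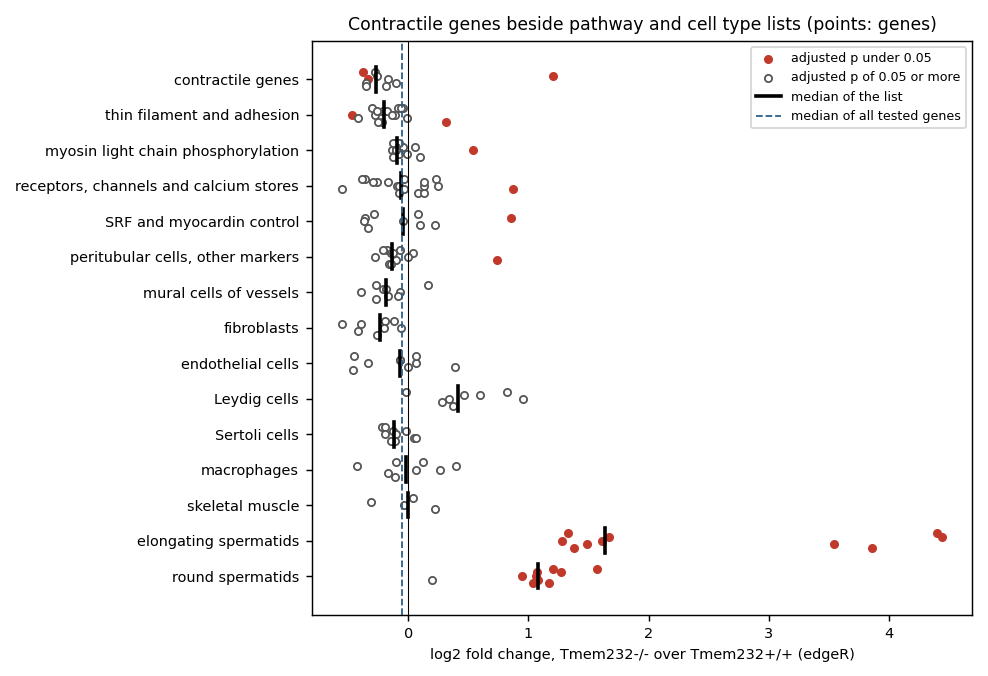
Each point is a tested gene, placed by its log2 fold change (libraries labelled Tmem232-/- over Tmem232+/+, edgeR), red where the adjusted p is under 0.05. Rows are the 10 contractile genes, the 4 pathway lists and the lists of cell type markers except epididymis, black bars are the medians of the lists and the dashed line is the median of all tested genes. The contractile genes have a median of -0.27 with Actg2 at 1.201, and the elongating spermatid markers have a median of 1.64.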

How the data were processed

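The 10 genes and all gene lists were chosen with earlier results of these data known. Per the labels, 8 libraries were grouped by genotype, and nothing beyond 1 mouse per library was stated on batches. The authors mapped clean reads to GRCm38.p6 with HISAT and Bowtie2 and counted them with StringTie and featureCounts. The deposited table gives estimated counts per gene without normalization, of which 10.71% to 11.2% per library are not whole. Beside them it gives FPKM, which the authors scaled by transcript length and library. Tool versions, and whether the counting used strand, are not given in the sources used here. Deposited means, fold changes and p-values of the authors' own comparison were not used.

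Counts were rounded and tested in R 4.3.3 with edgeR 4.0.16 (filterByExpr, TMM, quasi-likelihood test, no covariates, 15787 genes, Benjamini-Hochberg adjustment). CPM use the TMM scaling. Single values were compared by exact permutation over 70 arrangements, two-sided. Alternatives were DESeq2 1.42.0, its size factors, library size alone, no filter, at least 10 counts in every library, log2 of FPKM plus 1 or 0.1 with limma 3.58.1, a replicate block, and libraries left out. The steps were tested on simulated data. Named genes were the members, Tmem232, the genes of each list with an adjusted p under 0.05 (up to 3 highest and 3 lowest), defining markers and the 10 genes most like the members. Actb, Actg1, Acta1, Actc1, Ednra, Srf and Myocd were named in addition, after their values were seen. Gucy1a3 and Gucy1b3 were matched by synonym. Sequences are from RefSeq (GRCm38.p6) and GENCODE M21. Python 3.11.15 was used for the summaries. The result of 1 gene of the pathway lists is not reported here.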

Additional observations from a re-analysis of the deposited data

Results flagged for a closer look

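A library far from the other 3 of its label was found in 3 of 56 groups of 4 libraries, where chance gives about 2.8, measured as the gap to the nearest library over the range of the group and set against Dixon's 95% limit for 4 values. For the log2 ratio of Actg2 to Acta2 counts, replicate 1 labelled Tmem232-/- had -1.01 with the nearest library at -1.38, a measure of 0.8293, barely over the limit. This library had the highest Actg2 and the second lowest Acta2 level of its label. The summed fibroblast markers reached 1139 CPM in replicate 2 labelled Tmem232-/-, with the nearest library at 729.8 CPM and a measure of 0.9441. The summed mural cell markers fell to 75.2 CPM in replicate 3 labelled Tmem232+/+, with the nearest library at 91.3 CPM and a measure of 0.8759. Of the contractile genes in that library, Myh11, Cnn1, Des, Myl9, Mylk and Actg2 were the highest of their label and Lmod1 (6.84 CPM) was the lowest. No cause was tested.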

How the results depend on the processing

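Actg2 kept its call in all 17 alternatives, and Tagln, Cnn1, Des, Mylk and Smtn stayed negative and uncalled in all 17. Of the 10 members, 2 were called lower, and this became 1 with the replicate block (adjusted p of Acta2 0.093 at -0.38, and of Tpm2 0.062), 0 without replicates 1 and 3 labelled Tmem232+/+ (Acta2 -0.23, Myh11 -0.30), and between 0 and 3 with each library left out. In those fits the log2 fold changes lay between -0.43 and -0.30 for Acta2, -0.40 and -0.28 for Myh11, -0.34 and -0.20 for Myl9, and -0.24 and 0.058 for Lmod1, which also turned to 0.027. The 230 genes called lower over the whole table became 131 with DESeq2's size factors, 415 with library size alone, 71 without a filter, 466 and 448 with log2 of FPKM plus 1 and plus 0.1, 28 with the replicate block, 50 without replicates 1 and 3 labelled Tmem232+/+, and between 37 and 356 with each library left out. The cause was not tested. Replicate numbers did not pair the libraries. Same-numbered libraries had correlations of their deviations between -0.413 and 0.122, and replicate 1 labelled Tmem232-/- was closest to replicate 3 labelled Tmem232+/+ (0.461).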
